A study of Homo sapiens with 6 samples.

Results

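The miR-99/100 and miR-125 families were followed in small RNA sequencing of MDA-MB-231 cells through 10 mature arms, hsa-miR-99a-5p, hsa-miR-99b-5p, hsa-miR-99b-3p, hsa-miR-100-5p, hsa-miR-100-3p, hsa-miR-125a-5p, hsa-miR-125a-3p, hsa-miR-125b-5p, hsa-miR-125b-1-3p and hsa-miR-125b-2-3p (written below without the species prefix). They were chosen by name from the 1582 miRNAs of the count table, and all 10 passed the filter on low counts. MDA-MB-231 is a human triple-negative breast cancer cell line. The control group was 3 libraries of non-transfected cells, and the RARαS77A group was 3 libraries of the same line given lentiviral RARαS77A, a retinoic acid receptor α whose serine 77 is replaced by alanine and so cannot be phosphorylated. Because the controls received no vector, the mutant receptor and its delivery cannot be told apart, and nothing in the sources used here says if the RARαS77A cells were a clone or a pool, or if each library came from its own culture. The p-values below therefore measure the spread between these libraries, which may be technical.

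A miRNA is cut from a hairpin precursor, whose 5p and 3p arms can each be loaded into Argonaute; the arm that is kept is called the guide and the other the passenger. The guide finds its targets mainly through its seed, bases 2 to 8, so paralogues with the same seed can share targets. miR-99, let-7 and miR-125 genes lie next to each other as ancient clusters, and their miRNAs are known for roles in cell growth, mTOR signalling, differentiation and blood cell development. In all members the 5p arm was the more abundant one and is called the guide here.

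The guides are shown because they fall into 2 seed groups, by which the results are ordered, and because miR-99a-5p and miR-100-5p are nearly the same molecule. The sequences are RefSeq's on GRCh38.p14, 5′ to 3′, with the seed in capitals.

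miR-100-5p: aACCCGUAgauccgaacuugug
miR-99a-5p: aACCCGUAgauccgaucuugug
miR-99b-5p: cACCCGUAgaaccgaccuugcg
miR-125b-5p: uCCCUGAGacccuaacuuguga
miR-125a-5p: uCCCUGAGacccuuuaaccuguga

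Of the 1342 miRNAs of the table with a RefSeq sequence, these 3 and 2 were the only ones with the seeds ACCCGUA and CCCUGAG. Counted from the 5′ end, miR-99a-5p and miR-100-5p differ by 1 base, U16A, and miR-99b-5p differs from miR-100-5p by 4, C1A, A11U, C16A and C21U. miR-125a-5p and miR-125b-5p are identical over their first 13 bases.

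The passenger arms are shown because their seeds differ from those of the guides and, apart from a near match between miR-99b-3p and miR-100-3p, from each other, and because miR-125b-1-3p and miR-125b-2-3p tell apart the 2 precursors that give the same miR-125b-5p.

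miR-100-3p: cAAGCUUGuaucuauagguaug
miR-99b-3p: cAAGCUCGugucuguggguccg
miR-125a-3p: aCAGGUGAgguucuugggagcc
miR-125b-1-3p: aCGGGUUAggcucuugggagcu
miR-125b-2-3p: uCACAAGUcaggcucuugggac

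The members come from 6 precursors on 3 chromosomes. On chromosome 11, minus strand, introns of the long noncoding gene MIR100HG hold MIR100 (the miR-100-5p bases are chr11:122152275-122152296), MIRLET7A2 and MIR125B1 (miR-125b-5p at chr11:122099809-122099830), with 52.5 kb between the starts of the first and the last. On chromosome 21, plus strand, introns of the long noncoding gene MIR99AHG hold MIR99A (miR-99a-5p at chr21:16539101-16539122), MIRLET7C and MIR125B2 (miR-125b-5p at chr21:16590253-16590274), with 51.1 kb between the starts. On chromosome 19, plus strand, MIR99B (miR-99b-5p at chr19:51692618-51692639), MIRLET7E and MIR125A (miR-125a-5p at chr19:51693268-51693291) lie in an intron of SPACA6, with 642 bases between the starts of the first and the last, overlapping an exon of the antisense transcript SPACA6P-AS.

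The libraries held between 9019266 and 11338580 counts. Normalised read counts are given as counts per 1000000 (CPM) scaled by TMM, edgeR's trimmed-mean factor, which was between 1.15 and 1.3 in the controls and between 0.811 and 0.83 in RARαS77A. That factor shifts every fold change. Across the 506 tested miRNAs the median log2 fold change was 0.06 with TMM and -0.51 when libraries were scaled by their total counts. By edgeR's quasi-likelihood test (adjusted p under 0.05), 23.3% of the 506 were higher and 21.1% lower with TMM, against 10.1% higher and 42.1% lower with total counts. The controls differed from each other. Control replicate 3 held 1833 counts of the pluripotent-cell miRNA miR-302b-3p, as the RARαS77A libraries did (1267 to 1303), while the other controls held 0 and 1. Control replicate 1 held 898 counts of the muscle miRNA miR-1-3p (28 to 49 in the other libraries). Control replicate 2 held 870 counts of the endocrine miRNA miR-375-3p (19 to 54 in the other libraries). Over all tested miRNAs the log2 CPM of control replicate 3 correlated with the RARαS77A libraries (Pearson r 0.967 to 0.975) as closely as with the other controls (0.967 and 0.968). The other controls reached 0.934 to 0.945 with RARαS77A and 0.984 with each other. Of 16 listed miRNAs of other cell types, 15 were in the table, and together they made up 0.0114% to 0.0412% of counts in the controls and 0.0272% to 0.0301% in RARαS77A, and of the 10 tested 0 were called by edgeR, 0 by DESeq2 and 0 at an unadjusted edgeR p under 0.05. miR-21-5p, miR-221-3p and miR-222-3p, abundant in this line, together held 46.9% to 53.5% in the controls and 51.5% to 52.8% in RARαS77A. Of these 3, 1 was higher and 0 lower by edgeR, 2 higher and 1 lower unadjusted, and 1 higher and 1 lower by DESeq2. The 7 epithelial miRNAs that it has little of held 0.012% to 0.017% and 0.0093% to 0.00999% (of 6 tested 1 higher by edgeR and 0 lower, also unadjusted and by DESeq2). For the arms called with TMM, control replicate 3 lay on the same side of every RARαS77A library as the other controls. Those calls were made with this library included, so its side was nearly given by them. This is no check on what its likeness to RARαS77A does to the results.

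The 10 arms did not move as 1 group. With TMM, 3 rose (the miR-99/100 guides miR-100-5p, miR-99a-5p and miR-99b-5p), 3 fell (miR-125b-5p, miR-125b-1-3p and miR-100-3p) and 4 did not pass the test, 6 of 10 called against 44.5% of all tested miRNAs. The median log2 fold change of the 10 arms was -0.26. Of all tested miRNAs, 23.3% rose and 21.1% fell with TMM. With total counts, miR-99a-5p alone rose (10.1% of tested miRNAs did) and 5 arms fell (42.1% of tested miRNAs did). By share of all counts, 8 of the 10 did not overlap between the groups (62.3% of tested miRNAs did not), with 2 higher (13.4% of tested miRNAs) and 6 lower (48.8%) in every RARαS77A library. Relative to the median of all tested miRNAs, which moves with the scaling by construction, the log2 fold change with TMM was 0.95 for miR-100-5p and -0.85 for miR-125b-5p.

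**Figure D1:**
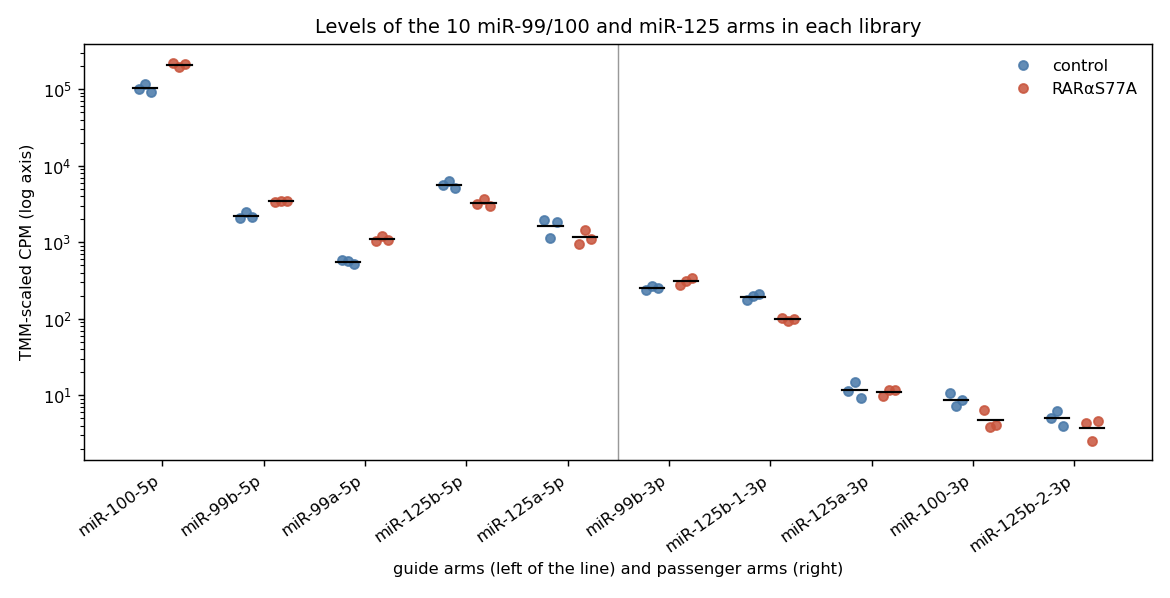
TMM-scaled CPM (log axis) of each of the 10 arms in each library, control in blue and RARαS77A in red, with bars at the group means and guide arms left of the line. The miR-99/100 guides lie higher in every RARαS77A library, miR-125b-5p, miR-125b-1-3p and miR-100-3p lie lower, and levels run from 2.5 CPM (miR-125b-2-3p) to 219517 CPM (miR-100-5p).

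miR-100-5p was the second most abundant miRNA in all 6 libraries. Its level was 101126, 117747 and 90431 CPM in the controls and 219517, 195010 and 209819 CPM in RARαS77A. The groups did not overlap, as they did not for 58.1% of all tested miRNAs, and the level in RARαS77A was 2.02 times that in the control (log2 fold change 1.01, SE 0.18, edgeR adjusted p = 0.00308). As a share of all counts it went from 11.7%, 15.3% and 11.0% to 17.8%, 16.0% and 17.4%, again without overlap (p = 0.1 in a two-sided exact permutation test, which cannot go lower with 3 libraries a group). With total-count scaling the log2 fold change was 0.43 and the call was lost (edgeR adjusted p = 0.0714).

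miR-99a-5p, the chromosome 21 paralogue, was measured at 589, 571 and 519 CPM in the controls and 1048, 1209 and 1064 CPM in RARαS77A. The groups were well apart, and the rise was close to that of miR-100-5p (log2 fold change 0.98, SE 0.09, edgeR adjusted p = 0.000249). It kept its call under each of the 18 alternatives run, among them total counts (0.41, edgeR adjusted p = 0.012). miR-99b-5p, from chromosome 19, had 2080, 2481 and 2105 CPM in the controls and 3362, 3478 and 3452 CPM in RARαS77A. It rose 1.54-fold with TMM (log2 fold change 0.63, SE 0.09, edgeR adjusted p = 0.00165). Its share of all counts, however, was 0.272% ± 0.0435 (SD, n = 3) in the controls and 0.281% ± 0.00743 in RARαS77A with overlapping libraries, and with total counts the log2 fold change was 0.05 (edgeR adjusted p = 0.763).

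miR-125b-5p had the second highest level of the members in the controls, 5607, 6287 and 5103 CPM, against 3158, 3717 and 2984 CPM in RARαS77A. Every RARαS77A library lay below every control, and the control level was 1.72 times that of RARαS77A (log2 fold change -0.79, SE 0.12, edgeR adjusted p = 0.00171). The fall was larger with total counts (-1.37, edgeR adjusted p = 0.000272), and the call was kept under all 18 alternatives. miR-125a-5p, its paralogue with the same seed, had 1974, 1138 and 1841 CPM in the controls and 937, 1425 and 1097 CPM in RARαS77A. The groups overlapped through control replicate 2, and the test was not passed (log2 fold change -0.52, SE 0.23, edgeR adjusted p = 0.109). Without that library the log2 fold change was -0.71 (adjusted p = 0.00706), and with total counts it was -1.08 (adjusted p = 0.00449), both past the edgeR threshold. miR-125a-5p also passed with DESeq2 (-0.63, adjusted p = 0.00547), with no filter, with totals lacking the 5 most abundant miRNAs and in both limma fits on TPM. It did not pass in the other alternatives, among them upper-quartile scaling (-0.30, edgeR adjusted p = 0.23) and limma-voom (-0.50, adjusted p = 0.104).

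After these changes the order of some guides differed between the RARαS77A libraries. In the controls miR-125b-5p stood above miR-99b-5p in every library, while in RARαS77A the 2 overlapped, at 2984 to 3717 and 3362 to 3478 CPM. miR-125a-5p likewise stood above miR-99a-5p in all controls and overlapped it in RARαS77A, at 937 to 1425 and 1048 to 1209 CPM. miR-100-5p was the highest and miR-125b-2-3p the lowest member by group mean in both groups.

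Summed by seed, the 3 miR-99/100 guides held 12.0%, 15.7% and 11.3% of all counts in the controls and 18.2%, 16.3% and 17.8% in RARαS77A. The 2 miR-125 guides held 0.875%, 0.963% and 0.843% in the controls and 0.332%, 0.421% and 0.339% in RARαS77A. Neither sum overlapped between the groups (exact permutation test, p = 0.1 for each). Counts of the miR-99/100 guides thus stood to those of the miR-125 guides at 13.7, 16.3 and 13.4 to 1 in the controls. In RARαS77A they stood at 54.7, 38.8 and 52.5 to 1. This ratio of counts within each library needs no scaling, and how it relates to numbers of molecules was not tested.

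**Figure D2:**
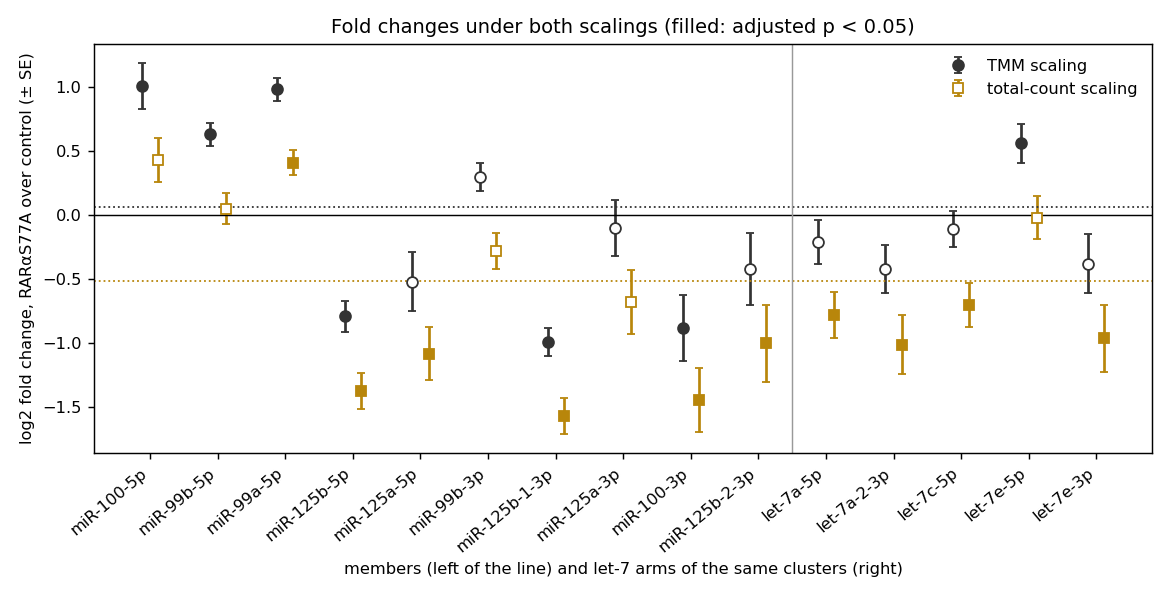
Log2 fold change of RARαS77A over control (± SE) of the members and of the let-7 arms of the same clusters, with TMM (circles) and total-count scaling (squares), filled where the edgeR adjusted p was under 0.05. Dotted lines mark the medians of all tested miRNAs, 0.06 and -0.51, and the order of the members is the same under both scalings while the number past the threshold in each direction is not.

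Of the 5 passenger arms, 2 fell by edgeR with TMM, against 21.1% of all tested miRNAs, and 3 with total counts, against 42.1%. With TMM 0 rose, against 23.3% (0 by DESeq2, and 1, miR-99b-3p, at an unadjusted p under 0.05), and 3 did not pass. miR-125b-1-3p, the passenger of the chromosome 11 precursor, had 176, 200 and 210 CPM in the controls and 101, 94.4 and 99.3 CPM in RARαS77A. The groups were far apart, and the control level was 1.99 times that of RARαS77A (log2 fold change -0.99, SE 0.11, edgeR adjusted p = 0.000443), a call kept under all 18 alternatives. miR-125b-2-3p, the passenger of the chromosome 21 precursor, had 63, 91 and 43 counts in the controls and 34, 21 and 38 in RARαS77A. At that depth its groups overlapped in CPM and no change was detectable with TMM (log2 fold change -0.42, SE 0.28, edgeR adjusted p = 0.257), while with total counts it passed (edgeR adjusted p = 0.0237).

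miR-100-3p went against its own guide. It had 10.6, 7.27 and 8.59 CPM in the controls and 6.49, 3.81 and 4.09 CPM in RARαS77A, from 132, 107 and 94 counts against 51, 32 and 34. The libraries did not overlap and the arm fell (log2 fold change -0.88, SE 0.26, edgeR adjusted p = 0.0293). This call did not hold with upper-quartile scaling (-0.63, adjusted p = 0.109), nor without control replicate 1 (-0.72, adjusted p = 0.0986), RARαS77A replicate 2 (-0.70, adjusted p = 0.145) or RARαS77A replicate 3 (-0.75, adjusted p = 0.137), all by edgeR.

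miR-99b-3p, the most abundant passenger, had 237, 265 and 252 CPM in the controls and 278, 309 and 343 CPM in RARαS77A. All RARαS77A libraries lay above the controls on this scale, but the test was not passed (log2 fold change 0.30, SE 0.11, edgeR adjusted p = 0.0584), and with total counts the value was -0.28 (adjusted p = 0.126). Upper-quartile scaling (0.51, edgeR adjusted p = 0.0177) or leaving out control replicate 2 (0.37, edgeR adjusted p = 0.0399) brought it past the threshold. miR-125a-3p, at 11.9 ± 2.89 CPM in the controls and 11.1 ± 1.06 CPM in RARαS77A (SD, n = 3), showed no detectable change at 78 to 220 counts per library (log2 fold change -0.10, SE 0.22, edgeR adjusted p = 0.729).

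The guide was then set against the passenger of the same hairpin within each library, which takes scaling out of the comparison. The ratios were tested with edgeR over all 144 pairs of arms, of which 54.2% changed (41.7% higher, 12.5% lower) and whose median log2 change was 0.49 toward the guide. Among the members, 1 of 5 pairs passed the test. For every 1000 counts of miR-100-5p there were 0.105, 0.0618 and 0.095 counts of miR-100-3p in the controls and 0.0295, 0.0195 and 0.0195 in RARαS77A. The passenger was scarce in all libraries and scarcer in every RARαS77A library, so that the guide to passenger ratio was 3.73 times higher (log2 change 1.90, SE 0.26, edgeR adjusted p = 0.000264). This change ranked 15 from the top among the 144 pairs, and stayed between 1.74 and 2.13 and past the threshold in the 9 alternatives that gave a value.

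The other member pairs did not pass with all 6 libraries over the 144 pairs. Per 1000 miR-99b-5p there were 114, 107 and 120 miR-99b-3p in the controls and 82.7, 88.9 and 99.4 in RARαS77A. The groups did not overlap, as for 61.1% of all arm pairs, and the change missed the threshold (log2 change 0.33, SE 0.16, edgeR adjusted p = 0.0998), which it passed when only pairs with a mean count of at least 100 were tested (0.33, edgeR adjusted p = 0.0448). miR-125b-5p and miR-125b-1-3p, which both fell, overlapped in their proportion, with 31.4, 31.7 and 41.1 passengers per 1000 guides in the controls and 31.9, 25.4 and 33.3 in RARαS77A (log2 change of the ratio 0.20, SE 0.19, edgeR adjusted p = 0.395). The log2 change was -0.38 (SE 0.31, edgeR adjusted p = 0.337) for miR-125b-5p to miR-125b-2-3p and -0.40 (SE 0.35, edgeR adjusted p = 0.367) for miR-125a-5p to miR-125a-3p, and the latter passed only without control replicate 2 (-0.85, edgeR adjusted p = 0.0101). miR-99a-3p, the passenger of MIR99A, was too scarce to test, with 12, 9 and 14 counts in the controls and 3, 1 and 1 in RARαS77A, in the direction opposite to that of its guide.

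**Figure D3:**
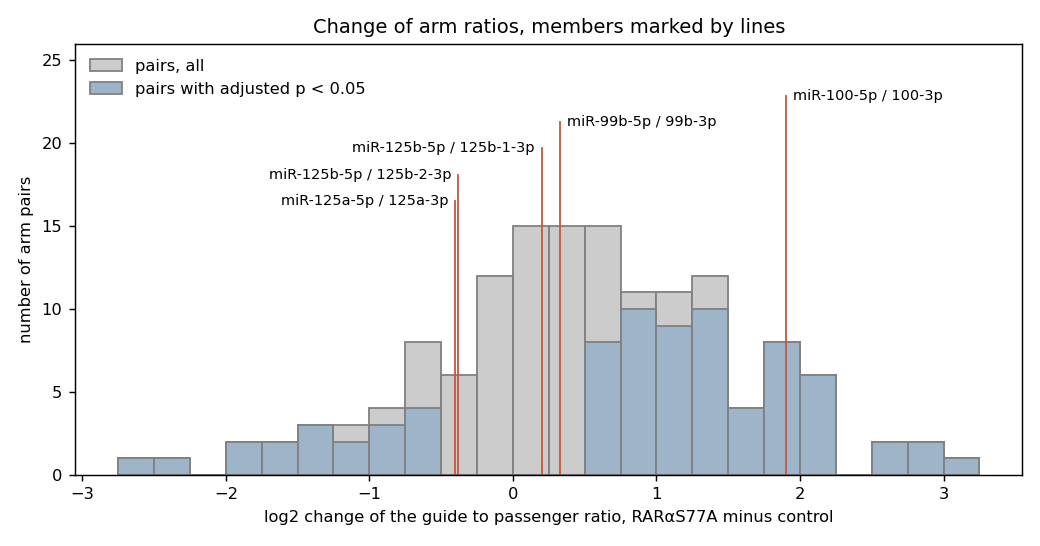
Histogram of the log2 change of the guide to passenger ratio, RARαS77A minus control, over all 144 pairs of arms in bins of equal width, with pairs at an adjusted p under 0.05 in blue. Red lines mark the 5 member pairs, of which miR-100-5p to miR-100-3p (1.90) lies in the upper tail and the others lie between -0.40 and 0.33.

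Neighbours in a cluster were compared next, since the 3 precursors of each cluster lie on 1 strand within 100 kb. Over all 125 such pairs of neighbouring precursors, 46.4% changed their ratio (25.6% higher, 20.8% lower) and in 59.2% the groups did not overlap. Of the 9 pairs among the members and their let-7 neighbours 7 changed, each toward the upstream gene of the pair. These 9 ratios share counts, within a cluster and through miR-125b-5p, so they are not separate observations. The miR-99/100 guide rose against the miR-125 guide in the pairs of all 3 clusters, of which 2 share miR-125b-5p. On chromosome 11 the number of miR-100-5p counts per miR-125b-5p count was 18.0, 18.7 and 17.7 in the controls and 69.5, 52.5 and 70.3 in RARαS77A. The controls agreed closely with each other, and the ratio was 3.5 times higher in RARαS77A (log2 change 1.81, SE 0.14, edgeR adjusted p = 0.000226). On chromosome 21, miR-99a-5p per miR-125b-5p was 0.105, 0.0909 and 0.102 in the controls and 0.332, 0.325 and 0.357 in RARαS77A (log2 change 1.77, SE 0.12, edgeR adjusted p = 0.000143). Both ratios use the same miR-125b-5p counts, which 2 precursors feed, and so are not independent. Over all libraries the passengers of these precursors stood at 21.7 to 53.4 miR-125b-1-3p (chromosome 11) per miR-125b-2-3p (chromosome 21). How miR-125b-5p splits between the precursors was not tested, so the miR-99a-5p ratio does not describe the chromosome 21 cluster alone. The numerators of the 2 ratios may not be separate either, since miR-99a-5p differs by 1 base from the far more abundant miR-100-5p. How far miR-100-5p reads enter the miR-99a-5p count was not tested.

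On chromosome 19, where each guide has a single precursor, miR-99b-5p per miR-125a-5p was 1.05, 2.18 and 1.14 in the controls and 3.59, 2.44 and 3.15 in RARαS77A. The groups lay apart, though control replicate 2 came close to RARαS77A replicate 2 (log2 change 1.13, SE 0.30, edgeR adjusted p = 0.0193). The call was lost without control replicate 1 (0.94, edgeR adjusted p = 0.0647), RARαS77A replicate 1 (1.01, edgeR adjusted p = 0.0654) or RARαS77A replicate 3 (1.10, edgeR adjusted p = 0.0607).

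Between them in each cluster lies a let-7 gene. let-7 is a large family with its own shared seed, known as a brake on growth. Of the 7 partner arms, the let-7 arms and miR-99a-3p, 5 were tested. With TMM 1 rose by edgeR, against 23.3% of all tested miRNAs, and 0 fell, against 21.1% (0 fell at an unadjusted p under 0.05 and 1 by DESeq2, median log2 fold change -0.21), whereas 4 fell with total counts, against 42.1%. let-7e-5p had 846, 1056 and 1135 CPM in the controls and 1259, 1659 and 1570 CPM in RARαS77A and rose (log2 fold change 0.56, SE 0.15, edgeR adjusted p = 0.0169), though not with total counts (-0.02). let-7a-5p (-0.21, edgeR adjusted p = 0.352), let-7c-5p (-0.11, adjusted p = 0.538), let-7a-2-3p (-0.42, adjusted p = 0.115) and let-7e-3p (-0.38, adjusted p = 0.212) did not pass, and let-7c-3p was not tested at 0 to 5 counts per library.

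Within the chromosome 19 cluster, no change was detected in the ratio of miR-99b-5p to let-7e-5p, at 2.46, 2.35 and 1.86 in the controls and 2.67, 2.10 and 2.20 in RARαS77A. These overlapped (log2 change 0.07, SE 0.16, edgeR adjusted p = 0.766), while let-7e-5p moved against miR-125a-5p (1.06, SE 0.27, edgeR adjusted p = 0.0175). On chromosomes 11 and 21 the miR-99/100 guide moved against let-7 too, by 1.22 (SE 0.24, edgeR adjusted p = 0.00847) for miR-100-5p to let-7a-5p and by 1.10 (SE 0.17, edgeR adjusted p = 0.003) for miR-99a-5p to let-7c-5p. The ratio of let-7c-5p to miR-125b-5p also rose (0.67, SE 0.17, edgeR adjusted p = 0.0189), while that of let-7a-5p to miR-125b-5p missed the threshold (0.58, SE 0.21, edgeR adjusted p = 0.058). let-7a-5p has further precursors on chromosomes 9 and 22, so its ratios do not describe the chromosome 11 transcript alone. The let-7c-5p call was lost without control replicate 1 (0.57, edgeR adjusted p = 0.0628) or 2 (0.68, edgeR adjusted p = 0.0504), the let-7e-5p call without RARαS77A replicate 1 (1.04, edgeR adjusted p = 0.0536) or 3 (1.00, edgeR adjusted p = 0.0607), and the let-7a-5p ratio passed without control replicate 3 (0.80, edgeR adjusted p = 0.0041) and over pairs with a mean count of at least 100 (0.58, edgeR adjusted p = 0.0172).

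**Figure D4:**
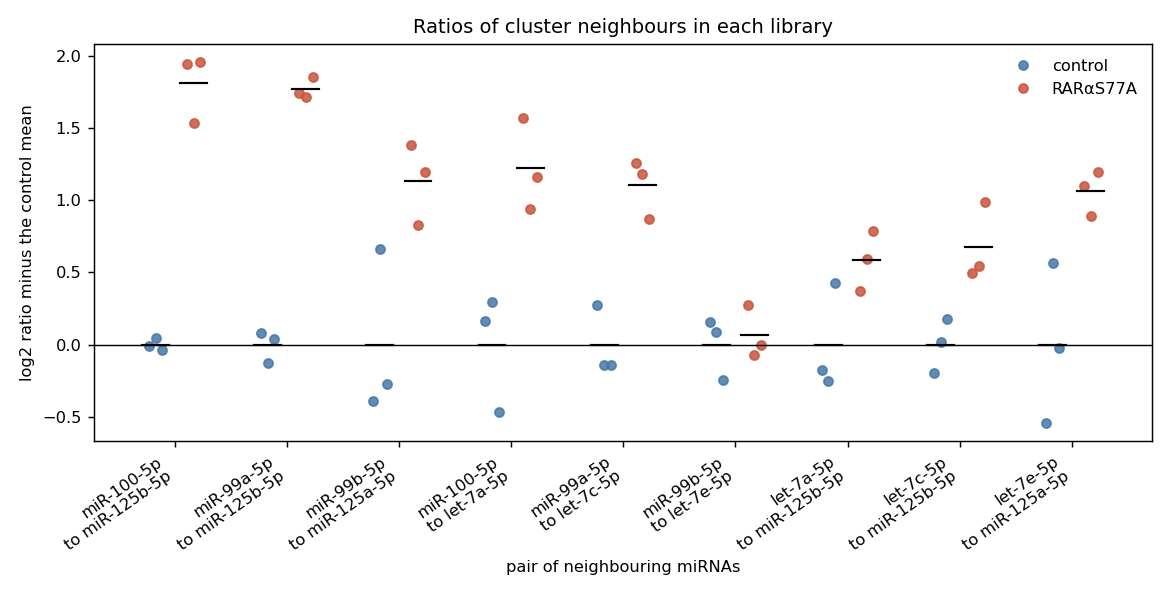
Log2 ratio of neighbouring guides in each library, set to 0 at the control mean of each pair, with control in blue, RARαS77A in red and bars at the group means. The ratios of miR-100-5p and miR-99a-5p to miR-125b-5p lie highest (mean changes 1.81 and 1.77), and miR-99b-5p to let-7e-5p (0.07) overlaps between the groups.

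The passengers of the chromosome 11 cluster can come only from that cluster. Per miR-125b-1-3p count there were 0.0602, 0.0364 and 0.041 miR-100-3p counts in the controls and 0.0645, 0.0404 and 0.0412 in RARαS77A. These values overlapped, so any change in the ratio of the 2 passengers was within the spread of the libraries, at 32 to 132 miR-100-3p counts per library. The ratio of their guides changed, but the guides have far more counts and miR-125b-5p also comes from chromosome 21. The 2 ratios can therefore not be set against each other. let-7a-2-3p per miR-125b-1-3p was 0.158, 0.186 and 0.124 in the controls and 0.244, 0.217 and 0.228 in RARαS77A, without overlap. These passenger ratios were given no model test, and the exact permutation p was 0.6 and 0.1. The passengers of the miR-125b precursors stood at 34.8, 32.3 and 53.4 miR-125b-1-3p per miR-125b-2-3p in the controls and 23.3, 37.8 and 21.7 in RARαS77A, with overlap.

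Paralogues with the same seed were compared over 147 pairs, of which 31.3% changed their ratio (19.7% higher) and 51.7% did not overlap between the groups. miR-99a-5p made up 5.82, 4.85 and 5.74 counts per 1000 of miR-100-5p in the controls and 4.78, 6.20 and 5.07 in RARαS77A. This proportion did not move beyond its spread (log2 change of miR-100-5p to miR-99a-5p 0.04, SE 0.12, edgeR adjusted p = 0.849), although the precursors lie on different chromosomes. The 2 differ by the single base U16A, and the sources used here do not say how mismatches were treated in the counting. How far reads of the far more abundant miR-100-5p enter the miR-99a-5p count was not tested.

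Against miR-99b-5p, with 4 differing bases, miR-100-5p gained ground. miR-99b-5p per 1000 miR-100-5p was 20.6, 21.1 and 23.3 in the controls and 15.3, 17.8 and 16.5 in RARαS77A (log2 change of miR-100-5p to miR-99b-5p 0.39, SE 0.08, edgeR adjusted p = 0.0109). The call was lost without RARαS77A replicate 3 (0.39, edgeR adjusted p = 0.0581). The ratio of miR-99b-5p to miR-99a-5p was 3.98 ± 0.412 in the controls and 3.11 ± 0.202 in RARαS77A (SD, n = 3), without overlap and just short of the threshold (log2 change -0.35, SE 0.11, edgeR adjusted p = 0.057). It passed without control replicate 1 (-0.44, edgeR adjusted p = 0.0427), over pairs with a mean count of at least 100 (-0.35, edgeR adjusted p = 0.0319) and with limma (-0.35, adjusted p = 0.0425).

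Of the miR-99/100 guides, miR-100-5p made up 97.4%, 97.5% and 97.2% in the controls and 98.0%, 97.7% and 97.9% in RARαS77A, so that the seed group was nearly all miR-100-5p in every library. The miR-125 guides were more mixed. miR-125a-5p was 26.0%, 15.3% and 26.5% of them in the controls and 22.9%, 27.7% and 26.9% in RARαS77A, with overlap, and no change of miR-125b-5p against miR-125a-5p was detected (log2 change -0.28, SE 0.29, edgeR adjusted p = 0.476).

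The miR-10 family is related to miR-99/100 by a similar 5′ end. The seeds ACCCUGU (miR-10a-5p) and ACCCGUA (miR-99/100) both start with ACCC, after which miR-10a-5p has an added U. miR-10a-5p, a known retinoic acid receptor target, had 2614, 2446 and 2706 CPM in the controls and 4806, 4439 and 4683 CPM in RARαS77A and rose (log2 fold change 0.84, SE 0.08, edgeR adjusted p = 0.000249), and its passenger miR-10a-3p fell (-0.44, SE 0.15, edgeR adjusted p = 0.0452). As with miR-100, guide and passenger thus moved in opposite directions. The miR-10a-3p call was lost with upper-quartile scaling (-0.24, adjusted p = 0.299) and without any 1 library other than control replicate 3 (edgeR adjusted p from 0.052 to 0.0955). miR-10b-5p was at 16.3, 3.81 and 12.6 CPM in the controls and 18.6, 17.9 and 19.4 CPM in RARαS77A and did not pass (0.77, SE 0.46, edgeR adjusted p = 0.211), and miR-10b-3p was at 0 or 1 count.

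Over the 6 libraries, the tested miRNAs outside these lists whose log2 CPM ran most like that of miR-100-5p were miR-522-3p (Pearson r 0.993), miR-4746-5p (0.989) and miR-378d (0.989). For miR-125b-5p they were miR-425-3p (0.991), miR-194-5p (0.989) and miR-497-5p (0.986). Between the members, r was 0.983 for miR-100-5p with miR-99b-5p, 0.962 with miR-99a-5p, -0.898 with miR-125b-5p and -0.961 with miR-125b-1-3p. The points share the split into 2 groups and the TMM factors, so these values describe the likeness of the profiles and carry no test.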

How the data were processed

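Small RNA of 3 control and 3 RARαS77A libraries had been made with an NEBNext small RNA kit. The authors deposited 1 table of 1582 miRNAs with raw read counts per library and TPM, which equals counts per 1000000 of the column total with no length term (largest difference 4.74e-05). The submitters' processing notes name Bowtie. The sources used here give neither its version and role nor the handling of mismatches and multiple matches. The members and lists were chosen with earlier results of these data known.

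Counts were tested with edgeR 4.0.16 in R 4.3.3 (TMM, filterByExpr with a minimum count of 10, quasi-likelihood test, Benjamini-Hochberg over 506 miRNAs, limit 0.05). SE is the log2 fold change over the root of F. Ratios were tested with the same test on 2 counts per library with a library term, over arms of 1 hairpin (144 pairs), precursors within 100 kb on 1 strand (125 pairs, each precursor by its more abundant arm) and miRNAs sharing bases 2 to 8 (147 pairs). Precursors and host genes came from GENCODE 29 on GRCh38 and mature sequences from RefSeq (all 10 members matched). The sources used here do not name the authors' build. Single values were compared by two-sided exact permutation tests. Totals lay between 9019266 and 11338580 counts, so that 21 counts of miR-125b-2-3p (RARαS77A replicate 2) gave a share of 0.000205% with a 95% Wilson interval from 0.000134% to 0.000313%, which covers counting error only. Named miRNAs were the members, the let-7 arms of their clusters and miR-99a-3p, the miR-10 arms, and for miR-100-5p and miR-125b-5p the 3 others with a mean count of at least 50 and the highest correlation.

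Alternatives were other scalings, no filter, DESeq2 1.42.0, limma 3.58.1 (voom, on log2 of the TPM plus 1 or 10, and on log2 ratios), a limit of 0.01, a replicate block and each library left out. On simulated counts for RARαS77A against control, edgeR recovered 97.4% of 194 changed of 493 tested miRNAs, with 1.56% of calls false. For the arm ratio it recovered 81.4% of 43 changed of 144 pairs, with 2.78% false. The simulated log2 changes were 1 or 2 (1 for the arm ratio), up or down at random, with a single dispersion throughout. The scaling difference and the unlike controls of the real libraries were not simulated, so these rates do not carry over to the calls above. No replicates agreed within sampling noise (chi-square per degree of freedom at least 67.5). Same-numbered libraries of the 2 groups were not paired in the main tests, since the sources used here do not say that they share a culture or day. Their deviations correlated by 0.039, 0.0992 and 0.0209, which cannot settle the question.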

Additional observations from a re-analysis of the deposited data

How the results depend on the processing

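Over the alternatives, 154 of 180 values of the members' log2 fold changes and 178 of 203 of the ratios kept their direction and their side of the threshold. Of the shares, 78 of 80 kept their direction. No threshold applied to the shares, since their exact permutation test cannot go below p = 0.1. Counts of calls depended most on scaling. Total counts gave 51 miRNAs higher and 213 lower (1 and 5 members), limma on log2(TPM + 1) 55 and 221, and on log2(TPM + 10) 59 and 218 (5 members lower in both). With no filter 162 were lower, and 62 at a limit of 0.01. Requiring a mean count of at least 100 left 32 arm ratios higher and 11 lower, with fewer pairs tested. The paralogue ratios had 26 lower with limma and 0.5 added to each count and 30 with 1 added. Leaving out 1 library gave 21 to 40 cluster ratios higher and 13 to 31 lower (fewest without RARαS77A replicate 2), and 11 (without RARαS77A replicate 3) to 31 (without control replicate 3) paralogue ratios lower.

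Values near 0 changed sign. miR-99b-3p was at -0.28 with total counts and -0.27 with either TPM fit, let-7e-5p at -0.02 with total counts and -0.01 with either TPM fit, and miR-125a-3p at 0.11 and let-7c-5p at 0.08 with upper-quartile scaling. Without single libraries, miR-125a-3p ran from -0.31 to 0.12, let-7c-5p from -0.22 to 0.0013, miR-99b-5p to let-7e-5p from -0.06 to 0.14 (-0.04 without RARαS77A replicate 1), miR-100-5p to miR-99a-5p from -0.04 to 0.15 (-0.01 without control replicate 1, -2.7e-05 without control replicate 3) and miR-125b-5p to miR-125a-5p from -0.46 to 0.04. With single libraries left out, the difference in share of all counts for miR-99b-5p ran from -0.00756 (without control replicate 1) to 0.0334 percentage points. Over all 8 alternatives it reached 0.277. For miR-99b-3p the difference was 0.00493 with the 5 most abundant miRNAs out of the total. The cause of these changes was not tested.

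With the replicate block, 107 miRNAs were higher and 94 lower, with 3 members each way. The block ended the call of miR-99b-5p to miR-125a-5p (1.13, limma adjusted p = 0.0855), let-7e-5p to miR-125a-5p (1.06, limma adjusted p = 0.0613) and miR-10a-3p (-0.45, edgeR adjusted p = 0.0692), and brought let-7a-5p to miR-125b-5p past the threshold (0.58, limma adjusted p = 0.0343). The sources used here do not say if the numbers pair these libraries. No value was had for miR-100 and miR-125b-2 arm pairs at a mean count of at least 100, nor for the pairs with miR-125b-5p within 10 kb.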
